A study of Mus musculus with 36 samples.

Results

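Hearts of mice that carried the label cSirt4-Tg and had undergone transverse aortic constriction (TAC) were compared with hearts of control mice after sham surgery. The 2 groups were taken from the sample titles and hold 6 libraries each, 12 of the 36 in the series, and are called Tg-TAC and Con-Sham below. Mice of both groups received vehicle, and per the labels RNA came from whole hearts that had been snap frozen. Genotype and surgery both differ between these groups, so that their shares in a difference cannot be told apart within the 12 libraries; the 6 sham-operated cSirt4-Tg libraries (Tg-Sham) and the 6 TAC libraries of control mice (Con-TAC), also given vehicle, are therefore set beside them where a step is described. The series title names sirtuin 4, reactive oxygen species and profibrotic transcription in heart failure as its subject. The labels used here do not state age, sex, strain, the time after surgery or the promoter that drives the transgene. Each library was taken as 1 mouse, which the labels do not state, so p-values measure the spread between libraries. For the tests of all genes this spread came from all 36 libraries, including TAC libraries of both genotypes given MitoQ in place of vehicle. The permutation tests used the 12 libraries compared.

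TAC narrows the aorta and makes the left ventricle pump against a higher pressure. Cardiomyocytes under such a load are known to grow and to switch on genes of the fetal heart, while fibroblasts become myofibroblasts, deposit collagen and stiffen the wall. A failing heart is also known to lose part of its capacity to burn fatty acids and to move calcium. SIRT4 is a sirtuin of the mitochondrial matrix that acts on enzymes of glutamine, fatty acid and branched-chain amino acid metabolism.

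Con-Sham libraries held 25904500 to 60010600 reads each, Tg-TAC libraries held 14834700 to 55383100, and 3 of the 12 stood apart. Among the 1814 genes that differed by at least 2-fold (counted below), Tg-TAC 6 lay within the range of the Con-Sham libraries for 56.3% and the other Tg-TAC libraries for 5.90% to 14.7%. Con-TAC libraries had shares of 17.1% to 59.8%, and Tg-Sham libraries of 32.8% to 55.4%. The genes were chosen for their difference between Tg-TAC and Con-Sham, which by itself lowers the Tg-TAC shares. The shares of Con-TAC and Tg-Sham are thus not on an equal footing with them. Tg-TAC 4, the shallowest library, was high in marker genes of adipocytes and B cells: their summed values were 40281 and 26724 normalized reads, against at most 4422 and 422 in the other Tg-TAC libraries. Con-Sham 2 had the fewest genes with a read, 17638, against a Con-Sham median of 20289. Defining markers of cardiomyocytes were present in every library, and their summed value ranged from 2562630 to 2913550 in Con-Sham and from 1306040 to 2752140 in Tg-TAC. The mitochondrial genome gave 22.7% ± 2.86 of the reads in Con-Sham and 17.1% ± 2.35 in Tg-TAC (SD, n = 6 each), a difference of -5.62 percentage points (exact permutation test, two-sided, p = 0.00866, against a smallest possible p of 0.00216).

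Sirt4, the gene that the label names (chr5:115616069-115622784, mm39), was not higher in Tg-TAC. Its 6 Con-Sham values were 398, 606, 380, 370, 349 and 367 normalized reads, and its 6 Tg-TAC values were 335, 330, 350, 313, 370 and 473. The groups overlapped, and the highest value in each came from Con-Sham 2 and Tg-TAC 6. The log2 difference was -0.17 (exact permutation test, two-sided, p = 0.323). Without Tg-TAC 6 it was -0.25 (exact permutation test, two-sided, p = 0.0303), with the Tg-TAC libraries lower. A transgene without the counted stretches of the gene would give no reads there, so the values check neither that it is present nor that it is absent, and the libraries are called by their label.

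Of 16275 genes tested, 6143 (37.7%) passed the threshold of an adjusted p under 0.05 (limma on log2 of the normalized read count plus 1), 3088 higher (19.0%) and 3055 lower (18.8%) in Tg-TAC. The even split is the background for the main counts of every gene list below, and it depends on the scaling. With libraries scaled to equal totals of nuclear reads, 4248 of the 16275 genes were higher and 1896 lower. These are the background for list counts under that scaling. The higher genes had the larger differences: 1205 of them were at least 2-fold higher and 330 at least 4-fold, against 609 and 125 genes that were at least 2-fold and 4-fold lower. In 1466 genes (9.01%) the 6 Tg-TAC libraries did not overlap the 6 Con-Sham libraries. In a fit of the 12 libraries alone, 4769 genes passed. Without Tg-TAC 6, 7299 genes passed, 3687 higher and 3612 lower, and 4282 (26.3%) did not overlap. Without Tg-TAC 4, 2638 were higher and 2570 lower. List counts without a library have such counts as their background. The named genes with the largest positive differences included secreted proteins of the matrix. Col8a2 encodes a chain of type VIII collagen and was 26.9-fold higher, with values from 3.30 to 9.93 in Con-Sham (median 5.84) and from 15.0 to 1108 in Tg-TAC (median 216). Timp1, an inhibitor of matrix metalloproteinases (chrX:20736405-20740974), was 23.2-fold higher, with a Con-Sham median of 19.5 and a highest Con-Sham value of 34.7, against 38.2 to 1447 in Tg-TAC (median 781). Tenascin C (Tnc), a matrix protein of wounded tissue, was 12.2-fold higher. The Wnt antagonist family members Dkk3 and Sfrp2 were 16.9-fold and 9.94-fold higher, the channel gene Panx1 7.94-fold and the protease inhibitor Serpina3n 8.65-fold. Serpina3n lies among similar genes, so its reads may be shared with its copies. These genes were named on the condition that the groups did not overlap. Tg-TAC 6 was at 15.0 for Col8a2 and at 38.2 for Timp1, just above the Con-Sham libraries. Sfrp2 was also carried by Tg-TAC 4, where it stood at 3731, against 116 to 1028 in the others. Without Tg-TAC 6, the log2 difference went from 4.75 to 5.46 for Col8a2, from 4.54 to 5.26 for Timp1, from 3.61 to 4.22 for Tnc and from 4.08 to 4.69 for Dkk3.

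The named genes with the largest negative differences, chosen on the same condition, included channels and receptors. Kcnv2, a modifier subunit of voltage-gated potassium channels (chr19:27299988-27314579), ranged from 571 to 746 in Con-Sham (median 645) and from 14.4 to 398 in Tg-TAC (median 34.2). Tg-TAC 6 was the highest of the Tg-TAC libraries at 398, and the other 5 were at 75.5 or below. Kcnv2 was 14.0-fold lower, and the log2 difference of -3.81 ± 0.55 (SE) was -4.43 without Tg-TAC 6. The chloride channel gene Clcn1 was 24.9-fold lower, with Tg-TAC values of 0 to 121; its log2 difference of -4.64 was -5.44 without Tg-TAC 6 and -4.05 without Tg-TAC 4. Adra1a, the alpha-1A adrenergic receptor, ranged from 486 to 816 in Con-Sham (median 689) and from 48.5 to 286 in Tg-TAC (median 165). Celsr2, an adhesion receptor of the cadherin superfamily, was 3.67-fold lower (adjusted p = 2.78e-08), and Rbfox1, a splicing regulator of muscle and neurons, 3.59-fold lower. The structural RNA Rn7sk, which holds back transcription elongation, ranged from 1764 to 7997 in Con-Sham (median 4547) and from 64.9 to 359 in Tg-TAC (median 81.6), a 34.9-fold difference. It was low in Tg-TAC 6 as well, at 180.4, and its log2 difference was -6.03 in Con-TAC minus Con-Sham and -0.61 in Tg-Sham minus Con-Sham. Whether surgery or the preparation of the libraries goes with it cannot be told apart here.

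**Figure D1:**
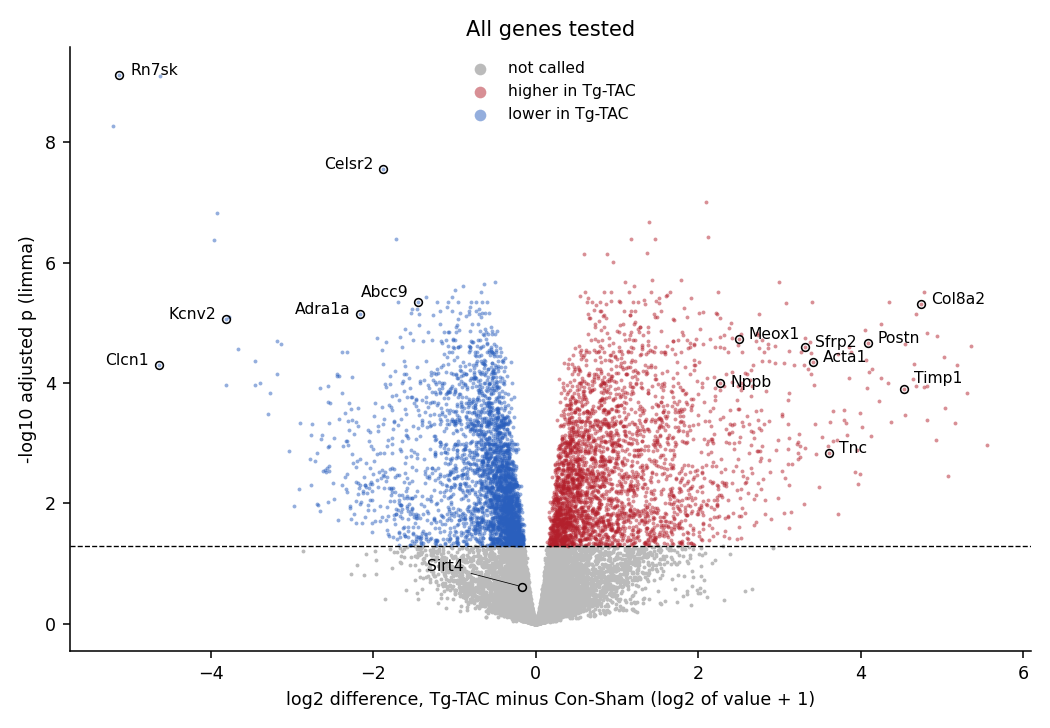
Each point is 1 of 16275 genes, with the log2 difference between Tg-TAC and Con-Sham (log2 of normalized reads plus 1) on the x axis and -log10 of the limma adjusted p on the y axis; the dashed line marks 0.05. The 3088 higher and 3055 lower genes lie above the line, some of the named genes are circled, and Sirt4 lies below it at -0.17.

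Most genes of the fetal and stretched heart were higher. Of 20 such genes tested, 13 were higher and 0 lower (background 19.0% and 18.8%), with a median log2 difference of 1.57 against 0.00 over all genes, and without Tg-TAC 6 15 were higher. Nppa and Nppb encode the atrial and B-type natriuretic peptides, hormones of the stretched heart. Nppa (chr4:148085179-148086536) ranged from 4266 to 7403 in Con-Sham (median 4787) and from 3535 to 245197 in Tg-TAC (median 180557). In 5 of 6 Tg-TAC libraries it was at 94193 or above, and in Tg-TAC 6, at 3535, it was below every Con-Sham library. Its log2 difference was 4.10 ± 0.71 (adjusted p = 6.61e-05), and 5.04 without Tg-TAC 6. Nppb ranged from 4009 to 5951 in Con-Sham (median 5281) and from 10169 to 44082 in Tg-TAC (median 27199.5), with no overlap between the groups. Acta1, the skeletal muscle alpha-actin that the fetal heart uses (chr8:124618508-124621490), ranged from 3483 to 10127 in Con-Sham (median 6572) and from 9532 to 192358 in Tg-TAC (median 117706). Tg-TAC 4 and Tg-TAC 6 were low, at 16171 and 9532, and its log2 difference was 3.41 ± 0.57. Ankrd1, a stretch-responsive protein of the sarcomere and nucleus, ranged from 27651 to 71802 in Con-Sham (median 46471) and from 44114 to 270939 in Tg-TAC (median 242127). Synpo2l, an actin-binding protein of the Z-disc, was 3.37-fold higher. Myh7, the slow myosin heavy chain, had a log2 difference of 1.16 ± 0.45 (adjusted p = 0.0406), a call lost without Con-Sham 1, 2 or 3 or without Tg-TAC 2, 4 or 5 (log2 difference 0.90 to 1.10 and adjusted p 0.0706 to 0.130 in these fits).

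The 150 bases before the start site of 4 of these genes are printed to show the bases at the start of transcripts that were higher; they are RefSeq promoter windows of GRCm38.p6, a build other than that of the deposited table, and 19 of the 20 list genes matched. Capitals mark matches on either strand to CATTCC (bound by TEAD factors), AGATAA (a site of the zinc-finger factor Gata4) or the CArG box (the site of serum response factor). The AP-1 site, TGANTCA, was searched too. So was a site of the estrogen-related receptors, TCAAGGTCA. The windows lie at chr8:123894776-123894925 (Acta1, minus strand), chr4:148000572-148000721 (Nppa, plus strand), chr4:147985750-147985899 (Nppb, plus strand) and chr19:36119845-36119994 (Ankrd1, minus strand).
Acta1: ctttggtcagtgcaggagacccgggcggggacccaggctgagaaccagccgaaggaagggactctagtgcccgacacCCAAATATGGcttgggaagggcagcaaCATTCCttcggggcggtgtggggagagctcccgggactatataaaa
Nppa: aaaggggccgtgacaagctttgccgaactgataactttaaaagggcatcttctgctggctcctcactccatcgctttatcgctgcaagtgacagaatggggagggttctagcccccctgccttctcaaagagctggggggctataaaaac
Nppb: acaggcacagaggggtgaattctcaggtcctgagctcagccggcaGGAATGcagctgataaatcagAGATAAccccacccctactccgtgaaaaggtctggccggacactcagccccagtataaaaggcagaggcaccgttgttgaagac
Ankrd1: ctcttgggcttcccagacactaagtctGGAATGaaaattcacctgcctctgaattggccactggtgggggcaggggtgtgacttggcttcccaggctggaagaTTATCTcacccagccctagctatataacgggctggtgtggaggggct
Acta1 holds a CArG box beginning 73 bases and CATTCC 46 bases before its start. Nppb and Ankrd1 each hold CATTCC on the minus strand, beginning 105 and 123 bases before the start, and AGATAA at 84 bases and, on the minus strand, 47 bases. Nppa was the gene of the 4 with the largest log2 difference, and these letters are not in its window. Over the full windows of 300 bases, CATTCC was in 7 of the 19 list genes (36.8%) and in 16.6% of all 27025 genes of the RefSeq table (14.7% of 32851 windows). AGATAA was in 4 (21.1%, against 12.7% of genes and 11.2% of windows), the CArG box in 4 (21.1%, against 1.81% and 1.63%), TGANTCA in 2 (10.5%, against 8.97% and 7.81%) and TCAAGGTCA in 0 (against 0.466% and 0.423%). The motifs do not overlap each other in the printed bases. A match is a string of letters and was not tested as a site.

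Most genes of calcium handling and part of the adult contractile genes were lower. Of 14 adult contractile genes 6 were lower, 0 higher and 8 not called, with a median of -0.36. Without Tg-TAC 6, 8 were lower, and without Tg-TAC 4, 5 were lower and 1 higher. Among those not called, Actc1 and Tnnc1, cardiac actin and troponin C, had log2 differences of 0.19 and 0.20 (both chosen after their values were seen). Myh6, the fast myosin heavy chain of the adult mouse ventricle, ranged from 958661 to 1066997 in Con-Sham (median 999159) and from 279913 to 938765 in Tg-TAC (median 511359.6). The groups did not overlap, and Tg-TAC 6, at 938765, was next to the Con-Sham libraries. Troponin I (Tnni3), the regulatory light chain Myl2 and titin (Ttn) had log2 differences of -0.89 ± 0.22, -0.79 ± 0.17 and -0.54 ± 0.16. Of 26 genes of calcium handling and excitability, 22 were lower and 0 higher (median -0.76). The lower count was 22 without Tg-TAC 6 and 18 without Tg-TAC 4. Atp2a2, the pump SERCA2a that refills the sarcoplasmic reticulum, ranged from 419768 to 508723 in Con-Sham (median 454142) and from 107647 to 483560.4 in Tg-TAC (median 218174). Tg-TAC 6 lay inside the Con-Sham range and the other 5 at 253972 or below, and the log2 difference was -1.10 ± 0.21. Pln, which encodes the pump's inhibitor phospholamban, was lower by a similar size, -1.04 ± 0.18. Kcnj3, a subunit of the acetylcholine-gated potassium channel, ranged from 2194 to 2704 in Con-Sham (median 2441) and from 190.4 to 2507 in Tg-TAC (median 376), with Tg-TAC 6 at the top of its group inside the Con-Sham range. Abcc9, the sulfonylurea receptor of the cardiac ATP-sensitive potassium channel, ranged from 11318 to 16195 in Con-Sham (median 13849.7) and from 2589 to 10557 in Tg-TAC (median 4720.1), with no overlap. Cardiomyocyte markers moved with these genes: 8 of 12 were lower and 1 higher (5 lower without Tg-TAC 4), and 9 of the 12 are members of the contractile list itself. In whole-heart RNA, fewer cells of a type and less RNA per cell cannot be told apart, and the markers' part in these results was not tested.

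**Figure D2:**
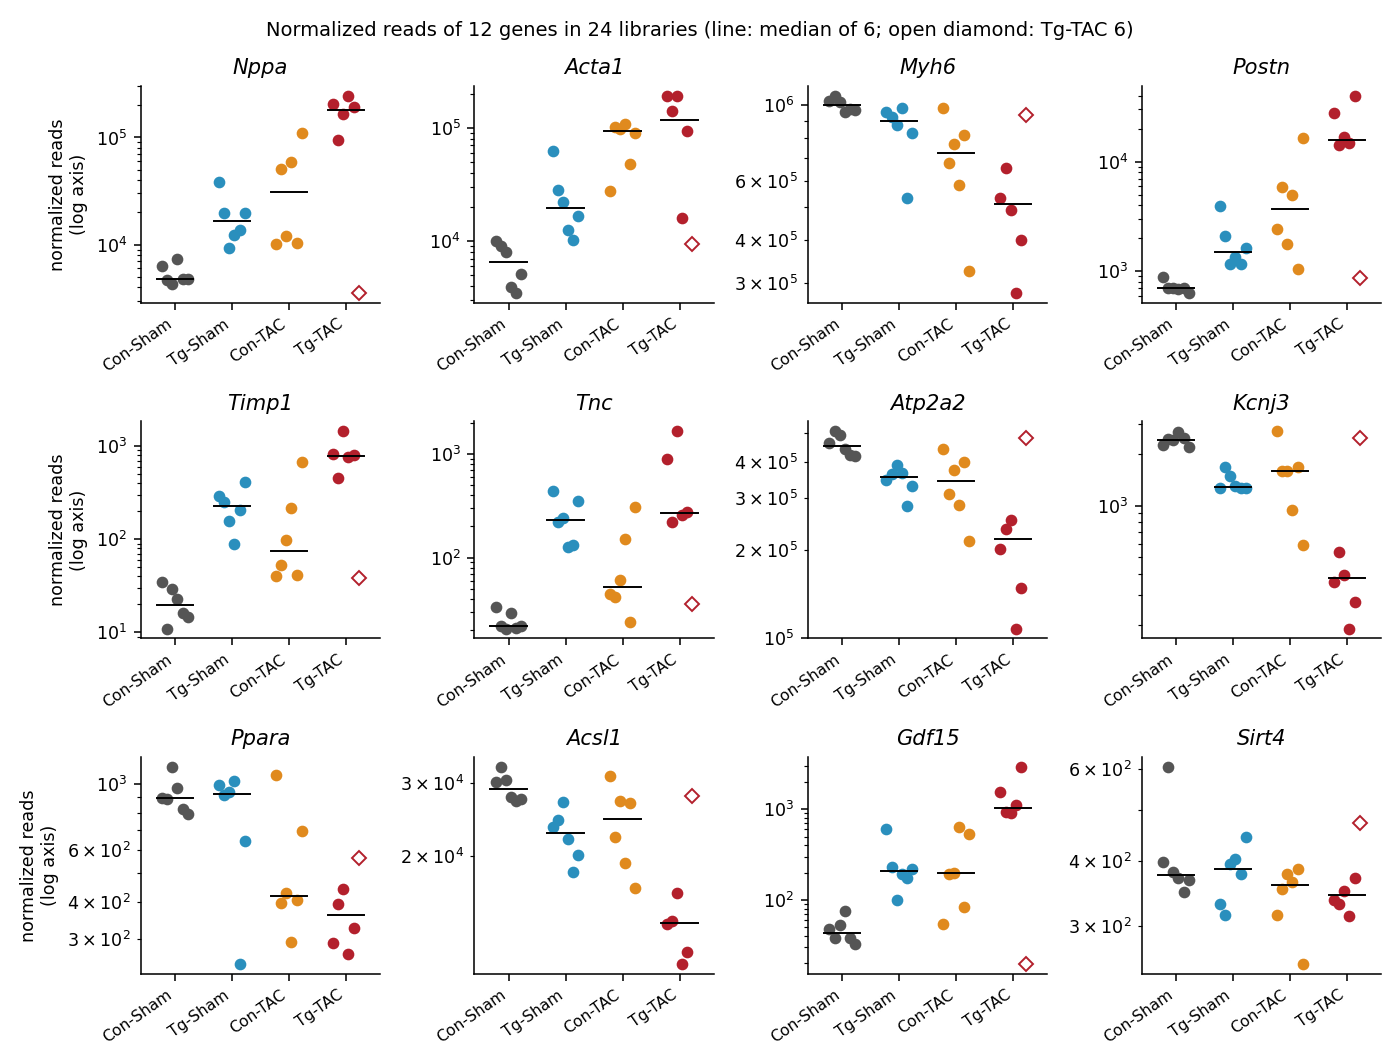
Normalized reads (log axis) of 12 genes in the 6 libraries each of Con-Sham, Tg-Sham, Con-TAC and Tg-TAC, with lines at the medians and Tg-TAC 6 as an open diamond. In the Tg-TAC column Nppa, Postn and Timp1 are high in 5 libraries and near the Con-Sham level in Tg-TAC 6, and Sirt4 overlaps across the groups.

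Most genes of the extracellular matrix lists were higher. Of 23 collagen chain genes 20 were higher and 1 lower (median 1.18), of 39 matrix glycoproteins and proteoglycans 30 higher and 0 lower (median 1.46), of 21 genes of collagen processing and crosslinking 17 higher and 1 lower (median 0.64), and of 21 matrix proteases and inhibitors 12 higher and 2 lower (median 1.14). Without Tg-TAC 6 the higher counts were 21, 31, 17 and 13. The main fibrillar chains Col1a1 and Col3a1 were 4.01-fold and 3.95-fold higher; Col1a1 ranged from 2549 to 3299 in Con-Sham (median 3111) and from 4239 to 18927 in Tg-TAC (median 16296). Neither overlapped between the groups, and Tg-TAC 6 was the lowest Tg-TAC library for both. Postn, periostin of activated fibroblasts (chr3:54268530-54298458), ranged from 636 to 898 in Con-Sham (median 704) and from 871 to 39954 in Tg-TAC (median 15856). The 5 Tg-TAC libraries other than Tg-TAC 6 were at 14307 or above, and Tg-TAC 6 was inside the Con-Sham range at 871. Its log2 difference was 4.09 ± 0.64 (adjusted p = 2.14e-05), and 4.86 without Tg-TAC 6. Cilp, a matrix protein of cartilage and injured heart, went from 4.25 to 5.01 on leaving out that library. Ccn5, a matricellular protein, and Sparc, a collagen-binding protein, had log2 differences of 3.09 ± 0.42 and 1.54 ± 0.22. Pcolce, which speeds the trimming of procollagen, was 3.06-fold higher, and Adamts2, the procollagen N-proteinase, 4.02-fold. The related Adamts3 was the lower member of the processing list, at -1.64 ± 0.26. Among the proteases, Mmp23 (63.8 to 144 in Con-Sham, 185 to 747 in Tg-TAC) and the gelatinase Mmp2 (2.67-fold) were higher without overlap, and so was the protease inhibitor Serpine2 (2.56-fold).

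TGF-beta signalling, the main known driver of scar formation, had 23 higher and 5 lower genes of 43 (median 0.58). The counts were 19 and 4 without Tg-TAC 4. The ligand Tgfb2 ranged from 116 to 235 in Con-Sham (median 199) and from 232 to 2909 in Tg-TAC (median 1742). Tg-TAC 6, at 232, lay inside the Con-Sham range, and the others were at 1495 or above. Its log2 difference was 2.81 ± 0.45. The follistatin-like proteins Fstl1 and Fstl3, Fstl3 being a binder of activins, were 4.44-fold and 5.34-fold higher. The pathway's inhibitors Smad6 and Tgif1 were 1.81-fold and 2.87-fold higher, both without overlap. Of 20 genes of myofibroblast activation 12 were higher and 1 lower (median 0.80), and 16 higher without Tg-TAC 6. The transcription factors Meox1, Scx and Sox9, which act in activated fibroblasts and tendon or cartilage cells, were 5.65-fold, 2.77-fold and 5.21-fold higher, with no overlap between the groups. Fibroblast markers moved with the matrix genes: 9 of 16 were higher and 1 lower (median 0.77), and their summed value ranged from 56981 to 65437 in Con-Sham and from 81817 to 148284 in Tg-TAC. Of the 16, 6 are members of the collagen or glycoprotein lists. Cartilage and tendon markers summed to 183 to 273 in Con-Sham, against 324 to 12041 in Tg-TAC, with Tg-TAC 4 and 5 highest. Their part in these results was not tested. Among 15 genes of the endothelin, angiotensin and natriuretic peptide system, 3 were higher and 3 lower (median -0.03), shares near the background of 19.0% and 18.8%. Of its called members, Ace, the angiotensin-converting enzyme, and the endothelin Edn3 were 3.01-fold and 6.26-fold higher, while Mme, the peptidase neprilysin that degrades natriuretic peptides, and Agtr1a, the angiotensin receptor, were 3.20-fold and 2.26-fold lower.

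**Figure D3:**
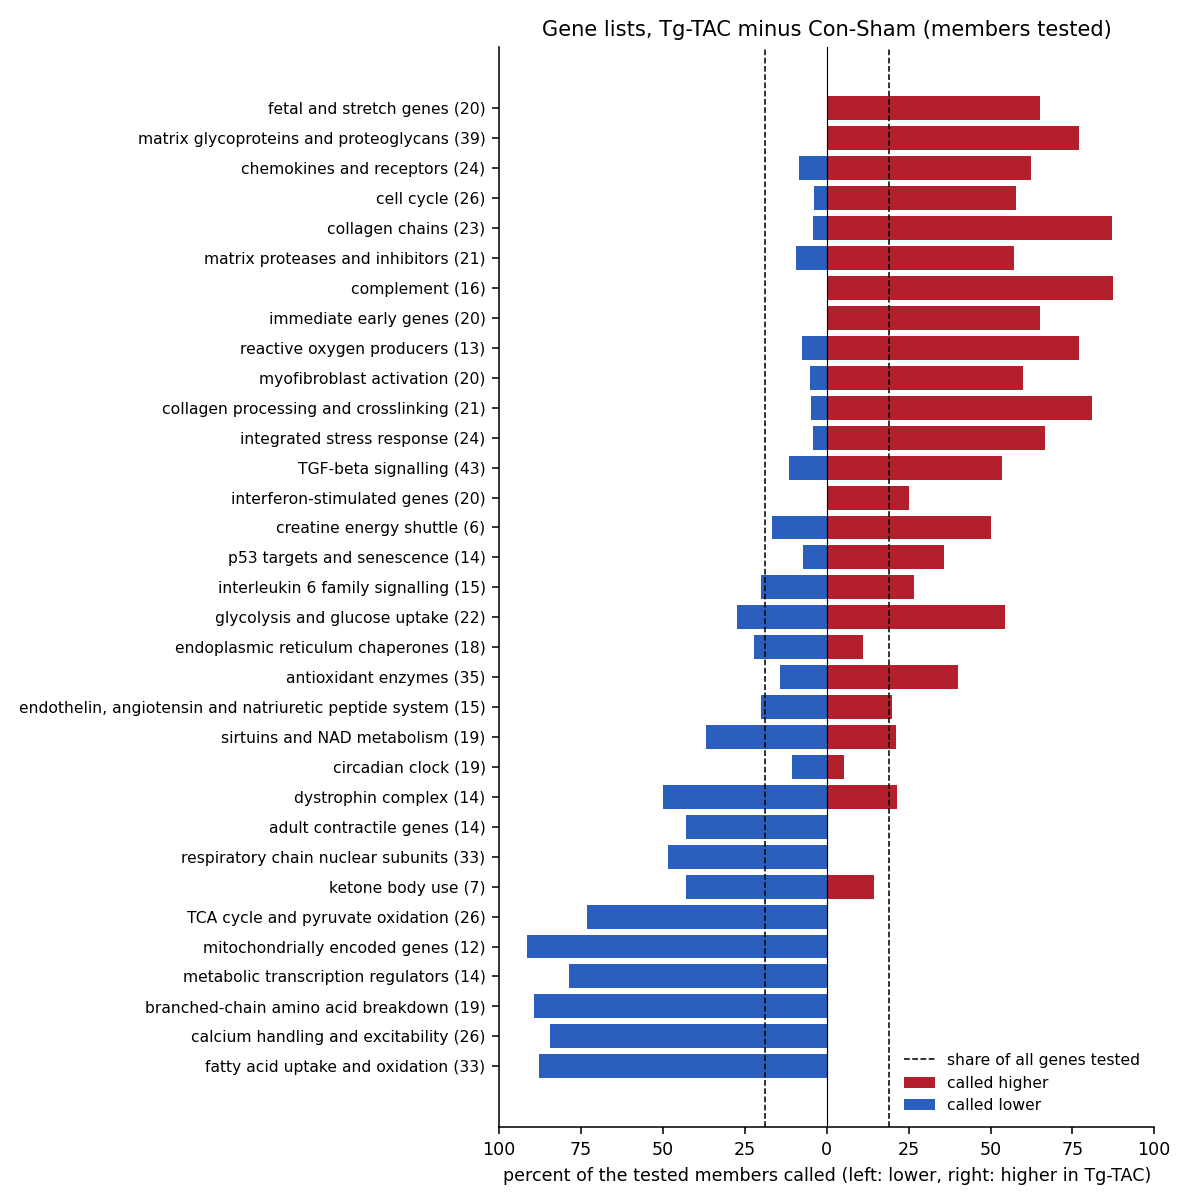
Percent of the tested members called higher (right) and lower (left) in Tg-TAC for 33 gene lists, ordered by median log2 difference, with the number tested in brackets; dashed lines mark the 19.0% and 18.8% of all genes. Collagen chains and complement reach furthest to the right, and mitochondrially encoded genes, branched-chain amino acid breakdown and fatty acid oxidation furthest to the left.

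Most genes of fatty acid oxidation were lower. Of 33 genes of fatty acid uptake and oxidation 29 were lower and 0 higher (median -0.80), and 30 were lower without Tg-TAC 6. The lower count was 27 without Tg-TAC 4, with a median of -0.60. Acsl1, which activates fatty acids by joining them to coenzyme A, ranged from 27067 to 32801 in Con-Sham (median 28952) and from 10969 to 27855 in Tg-TAC (median 13792). Tg-TAC 6 lay among the Con-Sham libraries, and the other 5 were at 16239 or below. Acacb, whose product malonyl-CoA limits entry of fatty acids into mitochondria, was 2.10-fold lower. Ech1 and Hadha, enzymes of beta-oxidation, were 2.42-fold and 1.84-fold lower, and Cpt1b, the muscle carnitine transferase, 2.02-fold. Pdk4, a kinase that blocks pyruvate oxidation, was not called, with a log2 difference of -0.20 ± 0.43 and overlapping groups. Of 14 transcriptional regulators of metabolism 11 were lower and 0 higher (median -0.63), with 9 lower without Tg-TAC 4. Ppara, the fatty acid receptor that drives these genes, ranged from 792 to 1140 in Con-Sham (median 893) and from 268 to 562 in Tg-TAC (median 361), with no overlap. Esrrg, an estrogen-related receptor, had the log2 difference -0.82 ± 0.12 (adjusted p = 6.38e-06). The coactivator Ppargc1a and the receptor partner Rxra were lower, at -0.97 ± 0.19 and -0.61 ± 0.10.

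Of 26 enzymes that oxidise pyruvate or run the TCA cycle, 19 were lower and 0 higher (median -0.49). The lower count was 24 without Tg-TAC 6 and 15 without Tg-TAC 4. Citrate synthase (Cs), the flavoprotein of succinate dehydrogenase (Sdha) and the pyruvate dehydrogenase subunit Pdha1 had log2 differences of -0.68 ± 0.12, -0.84 ± 0.16 and -0.58 ± 0.11. Of the nuclear subunits of the respiratory chain, 16 of 33 were lower and 0 higher, with a median of -0.37. That count was 28 without Tg-TAC 6 and 8 without Tg-TAC 4. Ndufs1 of complex I had a log2 difference of -0.82 ± 0.16. Of 12 mitochondrially encoded genes tested 11 were lower (median -0.58), but 8 without Tg-TAC 4. Within the libraries whose names carry a number from 7 to 14, 3 were lower, with a median of -0.49. These are Tg-TAC 1 to 5 and Con-Sham 1 to 3, fitted alone. With fewer libraries, a lower count of calls does not by itself show a smaller difference. mt-Co1, a subunit of cytochrome oxidase, had a log2 difference of -0.54 ± 0.15, and within those libraries it was -0.47 and not called (adjusted p = 0.119). Reads of several mitochondrial genes can be split with nuclear copies, so single values such as mt-Co3 are uncertain. Of 19 genes of branched-chain amino acid breakdown 17 were lower and 0 higher (median -0.67), with 14 lower without Tg-TAC 4. Aldh6a1, Acadsb and Dbt, enzymes of valine and isoleucine breakdown and of the shared dehydrogenase complex, were 1.99-fold, 1.66-fold and 1.87-fold lower. These lists rest on the deposited scaling. With libraries scaled to equal totals of nuclear reads, 1896 of all 16275 genes were lower, and the median of all genes was 0.12. The lower counts were then 28 of 33 for fatty acid oxidation, 16 of 26 for the TCA cycle and 9 of 33 for the nuclear respiratory chain. For mitochondrially encoded genes 8 of 12 were lower, and for branched-chain amino acids 15 of 19.

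Glycolysis did not move as a block. Of 22 genes of glycolysis and glucose uptake 12 were higher and 6 lower (median 0.25). Enolase 1 (Eno1), the platelet phosphofructokinase Pfkp and the lactate exporter Slc16a3 were 1.79-fold, 2.95-fold and 8.20-fold higher, while Hk2, the hexokinase of insulin-responsive muscle, was 1.58-fold lower. The log2 difference of Slc16a3, 3.04, was 3.69 without Tg-TAC 6. In ketone body use, 1 of 7 genes was higher and 3 were lower: Bdh1, which oxidises beta-hydroxybutyrate, was 1.89-fold higher, and Oxct1 and Acat1, which carry the next steps, were 1.42-fold and 1.59-fold lower. Bdh1 was also higher in Con-TAC than in Con-Sham, at 1.12, and was 0.07 in Tg-Sham minus Con-Sham. Creatine kinase B (Ckb) was 1.82-fold higher, without overlap.

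Among 19 sirtuin and NAD genes 4 were higher and 7 lower, and the higher count was 2 without Con-Sham 2, Con-Sham 4 or Tg-TAC 4. With equal totals of nuclear reads 7 were higher and 6 lower (all genes: 4248 and 1896 of 16275). Nmrk2, a nicotinamide riboside kinase of muscle, ranged from 39.6 to 167 in Con-Sham (median 55.2) and from 63.6 to 4976 in Tg-TAC (median 1946). Tg-TAC 6 lay inside the Con-Sham range at 63.6, and the other 5 were at 1649 or above. The log2 difference was 4.55 ± 0.71, and 5.45 without Tg-TAC 6. Nampt, the rate-limiting enzyme of the nicotinamide route to NAD, and the mitochondrial NAD kinase Nadk2 were 2.04-fold and 2.41-fold lower. Parp1, a consumer of NAD in DNA repair, was 1.46-fold lower without overlap. The mitochondrial sirtuins Sirt3 and Sirt5 had log2 differences of -0.23 ± 0.12 (adjusted p = 0.115) and -0.34 ± 0.12 (adjusted p = 0.0230). Sirt3 was called without Tg-TAC 6, at -0.30 with an adjusted p of 0.0355. Sirt5 lost its call without Con-Sham 2 or without Tg-TAC 1, 4 or 5, at -0.31 to -0.25 with adjusted p 0.0509 to 0.0864.

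Sources of reactive oxygen species were mostly higher, with 10 of 13 genes higher and 1 lower (median 0.81). The counts were 8 and 2 without Tg-TAC 4. Nox4, an NADPH oxidase that makes hydrogen peroxide, ranged from 26.5 to 47.3 in Con-Sham (median 36.7) and from 18.5 to 975 in Tg-TAC (median 298). Tg-TAC 6 was the lowest of all 12 libraries and the other 5 Tg-TAC libraries were at 171 or above, so that the log2 difference of 2.68 was 3.40 without it. Cybb, the phagocyte oxidase subunit, was 1.87-fold higher, with overlap, and is a gene of macrophages, whose markers were higher too (below). The monoamine oxidases went in opposite directions: Maoa was 1.79-fold higher and Maob 2.37-fold lower. Of 35 antioxidant genes 14 were higher and 5 lower (median 0.14), with 3 lower without Tg-TAC 4 and 2 lower with equal totals of nuclear reads. Glutathione peroxidase 1 (Gpx1), sulfiredoxin (Srxn1) and Selenow, a small selenoprotein, were 2.33-fold, 1.89-fold and 1.48-fold higher without overlap.

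Of 24 genes of the integrated stress response 16 were higher and 1 lower (median 0.61). Gdf15, a hormone of stressed tissue, ranged from 33.0 to 74.9 in Con-Sham (median 43.0) and from 19.7 to 2944 in Tg-TAC (median 1028). It was at 920 or above in 5 Tg-TAC libraries and at 19.7, below all Con-Sham libraries, in Tg-TAC 6; the log2 difference was 3.84 ± 0.85, and 4.84 without that library. Atf4, the transcription factor of this response, was 1.41-fold higher. Mthfd2 of mitochondrial one-carbon metabolism, asparagine synthetase (Asns) and the stress protein Nupr1 were 3.78-fold, 2.01-fold and 5.06-fold higher. Of 18 chaperones of the endoplasmic reticulum, 2 were higher and 4 lower (11.1% and 22.2%, near or below the background), while the median was positive (0.22). The balance depended on the scaling: with equal totals of nuclear reads 8 were higher and 2 lower (all genes: 4248 and 1896 of 16275). Without Con-Sham 2 or Tg-TAC 2, 4 were higher. The chaperone BiP (Hspa5) had a log2 difference of -0.45 ± 0.15 and Herpud1, of the degradation pathway, -0.78 ± 0.26, while Sdf2l1, a cofactor of chaperones, had 0.89 ± 0.29. Hspa5 was not called with libraries scaled to equal totals of nuclear reads (-0.33, adjusted p = 0.0776).

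Macrophage genes were higher in Tg-TAC. Of 20 macrophage markers 19 were higher and 0 lower (median 1.42), with 17 higher without Tg-TAC 4, and their summed value ranged from 7745 to 10622 in Con-Sham and from 10047 to 27174 in Tg-TAC, where Tg-TAC 6 was the lowest. In Tg-Sham it was 14321 to 20796, above all Con-Sham libraries, and in Con-TAC 9109.5 to 13994. Of 24 chemokines and receptors 15 were higher and 2 lower, and without Tg-TAC 4 9 were higher. Ccl8, a chemokine for monocytes, ranged from 9.69 to 22.9 in Con-Sham (median 16.2) and from 77.5 to 751 in Tg-TAC (median 125). It too was named on the condition of no overlap, and Tg-TAC 4 was far above the others at 751. Ccr2, the receptor of recruited monocytes, was 4.50-fold higher and Cxcl16, a membrane-bound chemokine, 1.98-fold. Of 16 complement genes 14 were higher and 0 lower (median 1.11, 13 without Tg-TAC 4); C1qa, which macrophages make, and the inhibitor Serping1 were 2.26-fold and 2.25-fold higher. The count of higher interferon-stimulated genes depended on single libraries. Of 20 such genes 5 were higher (25.0%, near the background of 19.0%), with a median log2 difference of 0.52. Leaving out 1 library gave 1 (without Tg-TAC 4) to 11 (without Con-Sham 6). With equal totals of nuclear reads 8 were higher, and 13 within the libraries named 7 to 14. Con-Sham 6 was itself high in these genes, with Isg15 at 136 against at most 55.4 in the other Con-Sham libraries. Isg15, a ubiquitin-like protein, was called at 1.12 ± 0.38 and lost the call without Con-Sham 2 (0.81, adjusted p = 0.0784) or Tg-TAC 4 (0.93, adjusted p = 0.0648). B cell markers, with 3 of 6 higher, had 0 higher without Tg-TAC 4 and 6 higher without Tg-TAC 6. Of the 20 macrophage markers, 5 are members of the chemokine or complement lists. The part of the marker genes' cells in these results was not tested.

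**Figure D4:**
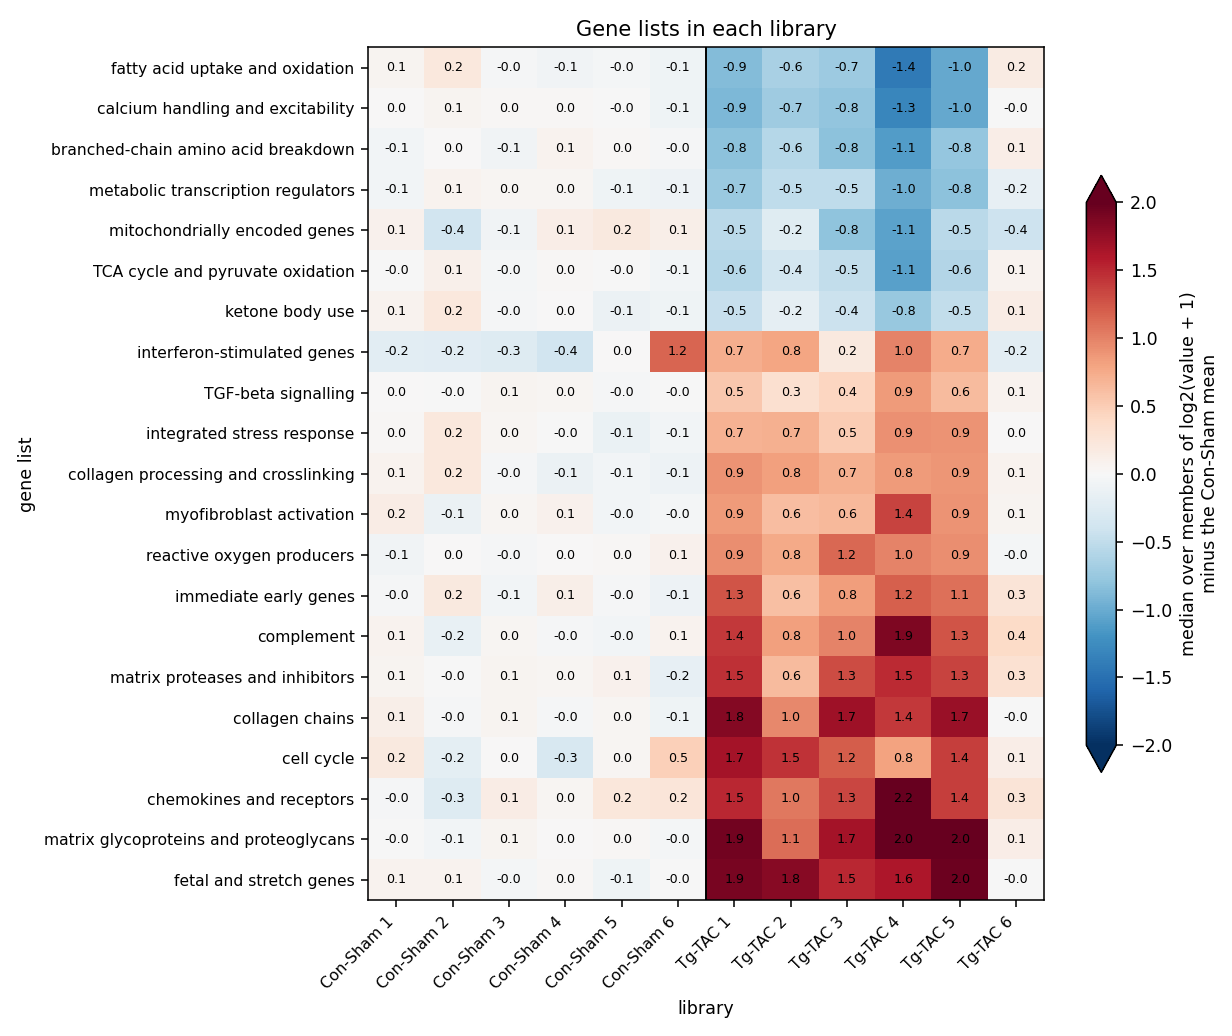
Median over the members of a gene list of log2(value + 1) minus the Con-Sham mean, for each Con-Sham and Tg-TAC library (columns) and each list with a median difference of at least 0.45 in size (rows). Tg-TAC 1 to 5 share the direction of every list shown, and Tg-TAC 6 lies between -0.41 (mitochondrially encoded genes) and 0.38 (complement).

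With all libraries, most genes of the cell cycle and immediate early lists were higher. Of 26 cell cycle genes 15 were higher and 1 lower (median 1.19); the higher count was 9 without Con-Sham 4, Tg-TAC 1 or Tg-TAC 5 and 20 without Tg-TAC 6. Cdc20, an activator of the anaphase-promoting complex, ranged from 19.3 to 49.5 in Con-Sham (median 29.9) and from 55.5 to 129 in Tg-TAC (median 89.0), and cyclin B1 (Ccnb1) was 5.95-fold higher, with values of 0 to 24.8 in Con-Sham, against 18.5 to 69.5 in Tg-TAC. Of 14 genes of the p53 response 5 were higher and 1 lower (3 lower without Tg-TAC 6). Phlda3, a p53 target that restrains AKT (chr1:135693857-135696874), ranged from 151 to 339 in Con-Sham (median 193) and from 408 to 1123 in Tg-TAC (median 1035). It did not overlap between the groups, Tg-TAC 6 included, and its log2 difference was 2.10 ± 0.22 (adjusted p = 9.68e-08). Of 20 immediate early genes 13 were higher and 0 lower (median 0.87), with 10 higher without Tg-TAC 4 and 11 without Tg-TAC 5. The transcription factors Egr3 and Junb were 7.23-fold and 2.77-fold higher without overlap. Egr2 ranged from 0 to 15.3 in Con-Sham (median 12.2) and from 18.5 to 265 in Tg-TAC (median 179), and its log2 difference of 3.86 was 3.25 without Con-Sham 2. The 150 bases before its RefSeq start numbered 3 here (chr10:67537719-67537868, plus strand, GRCm38.p6) are shown because they hold a CArG box, in capitals, beginning 72 bases before the start. Its window numbered 1 holds none. Over the full windows of 300 bases, Egr2 was the 1 gene with a CArG box among 15 immediate early genes with a window. That is 6.67%, against 1.81% of all genes of the RefSeq table, and rests on this 1 gene.
Egr2: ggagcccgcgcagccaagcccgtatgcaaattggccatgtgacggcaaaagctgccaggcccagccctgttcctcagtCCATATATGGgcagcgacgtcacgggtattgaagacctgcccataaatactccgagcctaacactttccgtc
Among 15 genes of interleukin 6 family signalling 4 were higher and 3 lower, with 1 or 2 higher when any of Con-Sham 1 or Tg-TAC 1, 3, 4 or 5 was left out. The feedback inhibitor Socs3 was 3.20-fold higher and the receptor Lifr 1.69-fold lower. Of 19 clock genes 1 was higher and 2 were lower, a share below the background; the lower ones were Hlf and Nr1d2, at -1.52 ± 0.41 and -0.89 ± 0.22.

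Within the dystrophin complex, which ties the cytoskeleton of the muscle cell to the matrix, 7 of 14 genes were lower and 3 higher (1 higher without Con-Sham 6). Dmd, dystrophin (chrX:81992476-84249747), ranged from 2771 to 3279.6 in Con-Sham (median 3006) and from 1082 to 2493 in Tg-TAC (median 1655). The groups did not overlap, and Tg-TAC 6 was the highest Tg-TAC library. Its log2 difference was -0.89 ± 0.16, beside -1.15 ± 0.16 (adjusted p = 0.000119) in Tg-Sham minus Con-Sham and 0.06 ± 0.16 (adjusted p = 0.860) in Con-TAC minus Con-Sham. The low level was thus present in sham hearts with the label, and control hearts after TAC showed no call. Sarcospan (Sspn) and beta-sarcoglycan (Sgcb) had log2 differences of -0.35 ± 0.08 and -0.33 ± 0.08, and the adaptor Sntb1, a syntrophin, was 2.62-fold higher.

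The difference between Tg-TAC and Con-Sham is the sum of 3 terms of the same fit: TAC in control mice, the label in sham mice and their interaction. These comparisons share the Con-Sham libraries, so their values are given side by side. Called genes numbered 863 (5.30%) in Con-TAC minus Con-Sham, 142 (0.873%) in Tg-Sham minus Con-Sham, 1054 (6.48%) in Tg-TAC minus Con-TAC and 2716 (16.7%) in Tg-TAC minus Tg-Sham. The limma interaction called 0 genes, with 949 at an unadjusted p under 0.05 and a smallest adjusted p of 0.178; no other tool was run for it. Acta1 had a log2 difference of 3.54 with TAC in control mice and 1.78 with the label in sham mice, against 3.41 in the combined comparison. Postn had 2.32 and 1.25 against 4.09, and Col1a1 0.61 and 0.89 against 2.00. Timp1 and Ccl8 had larger values for the label, 3.34 and 2.61, than for TAC, 2.34 and 0.94. The difference between the 2 steps was not tested. Con-TAC 6 stood apart for Postn (16577, others 1051 to 5866), Col1a1 (9575, others 2965 to 4844) and Timp1 (675, others 40.4 to 215). For Acta1 it stood at 89739, below Con-TAC 4 at 107859. The steps were not fitted without Con-TAC 6. Among lower genes, Kcnv2 had -1.56 and -1.43 against -3.81, and Pln -0.34 and -0.27 against -1.04. Kcnv2 was named for its large combined difference, and that choice by itself favours a value beyond those of the steps. By list, the medians for TAC in control mice and for the label in sham mice were -0.23 and -0.25 for fatty acid oxidation, 0.50 and 0.55 for collagen chains, and 0.44 and 1.17 for chemokines and receptors. Atp8a2, Abat and Cpxm2 were among the 6 called genes with the smallest unadjusted interaction p, and the interaction was not called for any of them. Atp8a2, a lipid flippase, had 1.13 with TAC and 1.04 with the label, and 1.20 in Tg-TAC, with an interaction of -0.98 (adjusted p = 0.592). Abat, the GABA transaminase, had 1.08, 1.17 and 0.75, and Cpxm2, a carboxypeptidase-like protein of the matrix, 1.55, 0.83 and 1.18.

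**Figure D5:**
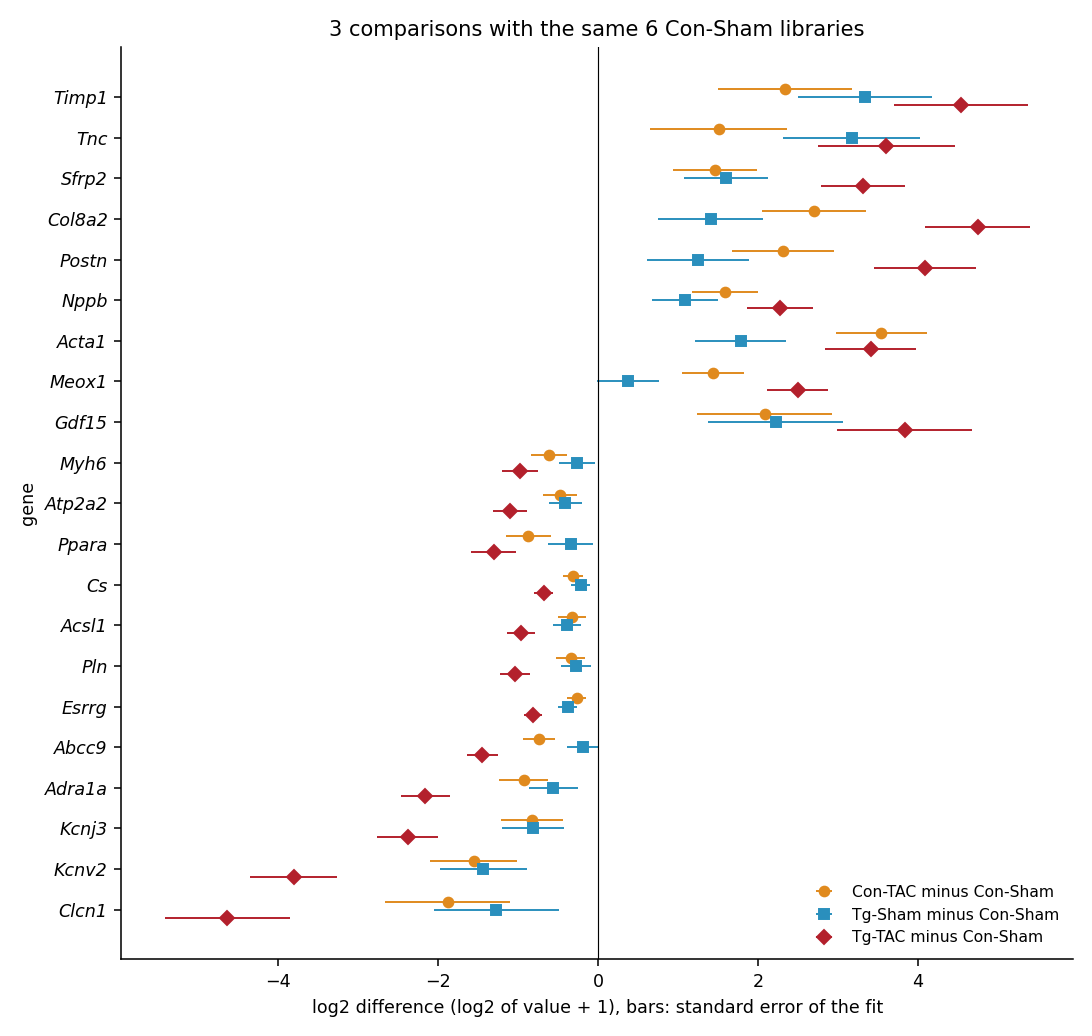
Log2 differences of 21 genes (x axis, bars are SE) for Con-TAC, Tg-Sham and Tg-TAC, each minus the same 6 Con-Sham libraries. For Kcnv2, Clcn1, Adra1a and Col8a2 the Tg-TAC value lies beyond both others, and for Acta1 it lies next to the Con-TAC value. Kcnv2, Clcn1, Adra1a and Col8a2 were named for their large differences between Tg-TAC and Con-Sham. That choice by itself favours a Tg-TAC value beyond both others.

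Of 14 endothelial markers 1 was higher and 2 lower (median 0.01), and of 11 smooth muscle and pericyte markers 2 were higher and 1 lower (median 0.05), shares near or below the background. All 6 erythroid genes were higher (median 1.16; 5 without Tg-TAC 6), with reads of the globin genes possibly shared between their copies, and their summed value was 1448 to 4401 in Con-Sham, against 4323 to 10772 in Tg-TAC. Of 8 Schwann cell markers 4 were lower and 1 higher, with 2 lower when Con-Sham 4, Con-Sham 5, Tg-TAC 4 or Tg-TAC 5 was left out. Their summed value went the other way, 3567 to 4682 in Con-Sham, against 3732 to 9453 in Tg-TAC, since Prnp, the higher member, held most of it (mean 3622 and 7069). Markers of T and natural killer cells were not called in any of the 4 genes tested, and their summed value was 35.1 to 66.0 in Con-Sham, against 45.1 to 419 in Tg-TAC, with the highest value in Tg-TAC 4. Atrial myocyte markers, Nppa and Dkk3 among them, had 2 of 4 tested genes higher and 0 lower. They summed to 4352 to 7515 in Con-Sham, against 3702 to 247876 in Tg-TAC, and Nppa held most of it. The share of atrium in these libraries was not tested.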

How the data were processed

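RNA of 36 whole-heart libraries was measured by RNA sequencing, and 12 of them are compared here. Per the labels' protocols, RNA was extracted with a kit for fibrous tissue and libraries were made with a directional kit; whether counting used the strand is not stated there. Trim Galore, STAR and mm39 are named in the submitters' processing notes, without versions, and the tools for counting and normalizing were not given in the sources used here. Normalized read counts (a signal, not raw counts) for 25626 genes were deposited by the authors as 1 table. All values were whole multiples of the value of 1 read in their library, within 0.01 read, which gave back the reads of each library; the report gives their range. Low counts therefore limit the precision most in the shallowest library, Tg-TAC 4.

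A gene was kept where 6 or more libraries had a normalized read count of 10 or more (16275 genes). Values were taken as log2 of the count plus 1 and fitted with limma 3.58.1 (R 4.3.3), with a separate mean for each of the 6 groups (36 libraries and 30 residual degrees of freedom) and a robust trended variance; p-values were adjusted by Benjamini-Hochberg over all genes tested, with 0.05 as the threshold. Differences on this scale understate the change of low genes, and a fold is 2 to the power of the log2 difference. Sirt4 and the mitochondrial share were tested by exact permutation (scipy 1.17.1). Simulated data drew all 36 libraries from the means and spread of Con-Sham, with 200 genes changed in Tg-TAC. Tests on them recovered 64.2%, 79.1% and 93.9% of genes changed by 1.5-fold, 2-fold and 4-fold, with 10 false calls among 16192 genes. The real Tg-TAC libraries were more spread (lowest correlation between 2 libraries 0.874, against 0.948 in Con-Sham). These shares therefore do not measure recovery or false calls in the real comparison. Alternatives were other pseudocounts, filters and scalings, array weights, a replicate block, the number in the library name as a term, the 12 libraries alone, leaving out libraries, and count tests of the recovered reads with DESeq2 1.42.0 or edgeR 4.0.16. Called in the text means past the threshold in limma.

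Genes named are Sirt4, the 12 called genes with the largest difference in each direction (mean of at least 100 and no overlap), up to 4 called members of each list with the smallest adjusted p, a set of well-known heart genes, and the 6 called genes with the smallest interaction p; genes the rule takes may be left out. The members and lists were chosen with earlier results of these data known. Promoter windows are from RefSeq (GRCm38.p6).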

Additional observations from a re-analysis of the deposited data

Results flagged for a closer look

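In each group of 6 libraries, a library was picked out where its gap to the nearest other library exceeded 0.625 of the group's whole range. This happened 48 times in 252 groups of 126 named genes (19.1%). Among independent groups of normally distributed values, about 1 in 20 would be picked. The values here were untransformed normalized reads of genes that move together, so 1 in 20 is not their chance rate. Tg-TAC 6 accounts for 30 of the 48, 26 times as the highest and 4 times as the lowest library of its group. Whether mouse, surgery or sample handling goes with this was not tested.

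In Tg-TAC 6 the fuel-burning genes stood above the rest of their group, in normalized reads: Acacb at 11480, Acadsb at 4468, Acsl1 at 27855, Aldh6a1 at 8447, Atp5a1 (ATP synthase) at 159748, Cpt1b at 120.2, Dbt at 2606, Ech1 at 30546, Ndufs1 at 27543 and Sdha at 50049.9. So did the channel genes Clcn1 at 121, Kcnj3 at 2507 and Kcnv2 at 398, and the contractile genes Myl2 at 175445 and Tnni3 at 142730. Genes of NAD metabolism in the same position were Nadk2 at 3050.1, Nampt at 8633, Parp1 at 1768, Sirt4 at 473 and Sirt5 at 1076. The others were Celsr2 at 151, Hspa5 at 23466, Lifr at 1602, Maob at 1929, Mme at 417 and Rbfox1 at 1207. It was lowest of its group for Ankrd1 at 44114, Maoa at 121, Pfkp at 1419.8 and Scx at 246.

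Tg-TAC 4 was highest for Ccl8 at 751, Ccr2 at 476, the interferon-stimulated gene Ifi27l2a at 1893, Sdf2l1 at 336 and Sfrp2 at 3731, and lowest for Oxct1 at 18631. Pdk4 at 18504 was highest in Tg-TAC 3, and mt-Co3 at 227 in Tg-TAC 2. Among the Con-Sham libraries, Con-Sham 1 was highest for Nmrk2 at 167 and Postn at 898. Con-Sham 2 was highest for Phlda3 at 339, Sirt4 at 606 and Tnni3 at 129158, and lowest for Junb at 191 and Tgfb2 at 116. Con-Sham 6 was highest for Isg15 at 136 and Synpo2l at 5609, and lowest for Ace at 1256.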

How the results depend on the processing

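The count of called genes was 6143, and 5539 to 7877 under the other settings that kept all libraries of the comparison, apart from 4769 with the 12 libraries alone. Within the libraries whose names carry a number from 7 to 14 it was 4463. That fit holds Tg-TAC 1 to 5 and Con-Sham 1 to 3 only. It leaves out Tg-TAC 6 and Con-Sham 4 to 6, whose numbers are 29 or 30. Leaving out 1 library gave 5208 (without Tg-TAC 4) to 7299 (without Tg-TAC 6), and 6374 genes were called without Tg-TAC 4, Tg-TAC 6 and Con-Sham 2. edgeR called 6115 and DESeq2 6434. No called gene was called in the opposite direction under any setting. Scaling moved the split between directions: with equal totals of nuclear reads, 4248 genes were higher and 1896 lower (69.1% higher, against 50.3%), with the median of all genes at 0.12, and with median-centred libraries 42.5% were higher, with the median at -0.06. Sirt4 was not called with all libraries, and its log2 difference ranged from -0.25 to -0.055 when 1 library was left out. The first is the value without Tg-TAC 6 (exact permutation test, p = 0.0303), where limma did not call it either (adjusted p = 0.0670). The second is the value without Con-Sham 2.

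Of 126 named genes, 123 were called and 116 of these in every one of 27 settings that tested them (Ccnb1 was not tested with the filter at 50). Myh7 lost its call with no filter, under the replicate block and without any of several libraries. A replicate block left 6048 genes called; same-numbered libraries did not deviate together (correlations of -0.08 to 0.06, and no library correlated best with its own number), so the numbers were not taken to pair the libraries. Depth limits genes of few reads, above all in Tg-TAC 4, and calls of about 1.5-fold were often missed in data simulated with the spread of Con-Sham.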
